A study of Mus musculus with 2 samples.

Results

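The genes described here are the 8 heavy chain constant genes of mouse immunoglobulin (Ighm, Ighd, Ighg3, Ighg1, Ighg2b, Ighg2c, Ighe and Igha) and Jchain, the joining chain of secreted IgM and IgA. They were chosen by their symbols, and these 9 of the 32285 genes in the deposited tables were all present. The data were droplet-based single-cell RNA-seq libraries of immune cells from mouse spleen, made to study the role of Rpa1 in T cells. One library came from an RPA1 conditional knockout (CKO) and 1 from a wild type (WT), both on the C57BL/6 strain. The labels used here give neither the Cre driver and deleted exons nor the age, sex or number of animals. With 1 library per genotype there is no replicate check: every interval given is a 95% interval that covers counting error only, and a difference between the libraries cannot be told apart from one between animals or preparations.

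A B cell joins 1 rearranged variable region to a constant region, and the constant region sets the isotype of the antibody. Naive B cells make IgM and IgD from 1 long transcript by alternative RNA processing. Class switch recombination deletes Ighm and Ighd from the expressed allele and brings a gamma, epsilon or alpha constant gene next to the variable region. Plasma cells then secrete antibody in bulk, and the J chain links IgM and IgA units into polymers.

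The 8 constant genes lie in a row on the minus strand of chromosome 12 (GRCm38, GENCODE vM21). In transcriptional order they are Ighm (chr12:113418558-113422730), Ighd (chr12:113406604-113416324), Ighg3 (chr12:113356224-113361232), Ighg1 (chr12:113325240-113330523), Ighg2b (chr12:113302965-113307933), Ighg2c (chr12:113285325-113288932), Ighe (chr12:113269260-113273248) and Igha (chr12:113254830-113260236). Jchain lies apart, on the minus strand of chromosome 5 (chr5:88519809-88527891). The last 30 coding bases of each secreted heavy chain transcript, read 5′ to 3′ up to the stop codon, are shown because they separate the polymeric from the monomeric isotypes. Capitals mark the penultimate codon where it encodes the cysteine of the secretory tailpiece, which bonds to the J chain in polymeric IgM and IgA.
Ighm: atcatgtctgacacaggcggcaccTGCtat
Igha: atcatgtcagagggagatggcatcTGCtac
Ighg3: cagaagaacctgtctcgctcccctggtaaa
Ighg1: gagaagagcctctcccactctcctggtaaa
Ighg2b: aagaagaccatctcccggtctccgggtaaa
Ighg2c: actaagaccatctcccggtctctgggtaaa
Ighe: agccttggtaacacctccctccatccctcc
These stretches are exonic and lie at chr12:113420870-113420899 for Ighm, chr12:113258771-113258800 for Igha, chr12:113359668-113359697 for Ighg3, chr12:113328979-113329008 for Ighg1, chr12:113306392-113306421 for Ighg2b, chr12:113287392-113287421 for Ighg2c and chr12:113271276-113271305 for Ighe. The gamma genes are related copies. Over the shorter coding sequence, Ighg2b and Ighg2c were 86.8% identical, with 871 of 1004 bases in common, and the other gamma pairs 76.3% to 80.2%, beside 72.1% for Ighm with Ighg1. Reads could be split between such copies, Ighg2b and Ighg2c above all, so counts of a few gamma UMIs are uncertain as to which gamma gene they came from. The libraries read transcripts near the 3′ end, and the bases after the stop codon were not compared. How often reads were split is therefore not known.

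The CKO library held 12958 barcodes and 76910129 UMIs (unique molecular identifiers, each counting 1 captured transcript), and the WT library 13291 barcodes and 84240951 UMIs. After filters on genes and mitochondrial share and removal of scored doublets, 11317 CKO and 11285 WT cells were used, with medians of 4499 and 5334 UMIs. The same barcode sequence occurred in both libraries for 36 barcodes. Rpa1 stood at 33.0 CPM in CKO T-like cells and 42.0 CPM in WT T-like cells (ratio 0.787, 0.668 to 0.922), and at 33.4 and 35.2 CPM in CKO and WT B-like cells (0.946, 0.879 to 1.02). CPM means UMIs of a gene per 1000000 UMIs summed over the cells of a class. A 3′ tag can lie outside the deleted part, so the transcript does not check the genotype label. Cells were clustered without immunoglobulin genes and without Jchain, so that these genes did not define the classes they are read in. All 9 B cell markers used were detected in every B-like cluster.

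B lineage cells numbered 8977 in the CKO library and 6776 in the WT library. Follicular B-like cells made up 52.1% of them in CKO and 58.1% in WT, and transitional B-like cells, the recent immigrants from bone marrow, 18.2% and 12.5% (ratio 1.45, 1.33 to 1.58). Plasma cell-like cells were 17 in CKO and 28 in WT, and germinal centre B-like cells 6 and 18. The smallest of the other classes was a Rag1-high transitional group of 67 CKO and 18 WT cells.

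The genes differed in which cells held their transcripts. Of the Ighd UMIs, 98.1% of 40595 in CKO and 98.3% of 39434 in WT were in B-like cells outside the plasma class. Jchain was the opposite, with 99.0% of 17766 UMIs in 17 CKO plasma cell-like cells and 98.2% of 32571 in 28 WT ones. Ighm was in both: plasma cell-like cells held 17.2% of 232823 UMIs in CKO and 36.5% of 223785 in WT, and B-like cells 80.4% and 58.9%. Igha totals of 15467 in CKO and 9702 in WT were 97.5% and 94.6% plasma cell-derived, and 1 cell alone gave 8969 of the CKO UMIs and 6238 of the WT ones. Ighg3 had only 250 UMIs in CKO and 195 in WT, almost all in B-like cells (96.4% and 98.5%).

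T-like cells, which should lack these transcripts, gave the level of free RNA. Ighm stood at 419 CPM in CKO T-like cells and 309 CPM in WT T-like cells, and Ighd at 72.7 and 14.7 CPM. Cells with UMIs of B cell markers were among them. In the 463 of 838 CKO and 2175 of 3626 WT T-like cells without any such UMI, Ighm was at 237 CPM in CKO and 311 CPM in WT (ratio 0.760, 0.699 to 0.824), and Ighd at 9.31 and 12.9 CPM (0.719, 0.458 to 1.09). Jchain had 0 UMIs in these CKO cells and stood at 3.98 CPM in these WT cells (ratio 0, 0 to 0.342). Per 1000 Ighm UMIs, these cells held 4.54 UMIs of switched genes in CKO and 20.3 in WT. NK-like cells showed no such difference in Ighm, at 167 CPM in CKO and 176 CPM in WT (0.948, 0.831 to 1.08). Jchain was found in other CKO cells, at 2.41 CPM in NK-like cells beside 5.20 CPM in WT (0.463, 0.173 to 1.24). In monocyte or macrophage-like cells it was at 3.15 CPM in CKO and 2.85 CPM in WT (1.10, 0.236 to 6.83). Neutrophil-like cells had 1.66 and 5.03 CPM (0.330, 0.0314 to 2.02). These intervals include 1. Per 1000 Ighm UMIs, NK-like cells held 11.6 UMIs of switched genes in CKO and 68.0 in WT. The values were 2.54 and 34.7 in monocyte or macrophage-like cells, and 7.09 and 18.1 in neutrophil-like cells, on few UMIs. In T-like cells the free RNA of the libraries thus differed in its makeup, and switched genes were lower beside Ighm in these other CKO lineages too. Its part in the differences of the rare genes was not tested.

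Ighm, the mu chain, was measured in nearly every B-like cell, with a UMI in 99.9% of the cells in CKO and 99.8% in WT. After thinning each cell to 1000 UMIs these shares were 95.5% and 94.2%, against 25.7% in the T-like cells of either library. Summed over all B-like cells, Ighm was at 3910 CPM in CKO (3892 to 3927) and 3586 CPM in WT (3567 to 3605), a ratio of 1.09 (1.08 to 1.10). That ratio is less than the 1.5-fold used here to call a gene, and it was 1.05 when the class levels were weighted by the WT class shares.

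Ighm followed the stage of the B cell in both libraries. Transitional B-like cells had the most among the B-like classes of at least 50 cells in each library, 6574 CPM in CKO and 6756 CPM in WT (0.973, 0.958 to 0.988). B-1-like cells, the self-renewing innate-like B cells, came next with 4550 CPM in CKO and 4500 CPM in WT (1.01, 0.985 to 1.04), whose interval includes 1. The Rag1-high transitional cells had 6167 CPM in CKO and 6542 CPM in WT, and in WT their interval of 5963 to 7163 CPM includes the transitional level. The order is by CPM. Per cell, the median was 35 UMIs in CKO and 31 in WT B-1-like cells, and 25 and 27 UMIs in transitional cells, which are shallower.

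In the mature classes Ighm was somewhat higher in CKO for 3 classes and not for marginal zone cells. Follicular B-like cells stood at 3393 CPM in CKO and 3163 CPM in WT (1.07, 1.06 to 1.08). Activated B-like cells, marked by Nr4a1 and Egr genes, stood at 3174 CPM in CKO and 2831 CPM in WT (1.12, 1.10 to 1.15), and interferon-responding B-like cells at 3961 and 3472 CPM (1.14, 1.11 to 1.18). Marginal zone B-like cells, which answer blood-borne antigen, were at 3318 CPM in CKO and 3396 CPM in WT (0.977, 0.955 to 0.999). Cycling B-like cells were at 2975 CPM in CKO and 2824 CPM in WT (1.05, 0.996 to 1.11), and in WT the ratio of activated over cycling cells was 1.002 (0.951 to 1.06), an order that is not resolved. In CKO the follicular and marginal zone levels lay close by CPM, at a ratio of 1.02 (1.01 to 1.04) of follicular over marginal zone cells. Per cell, the median was 13 Ighm UMIs in follicular cells of either library. It was 25 in CKO and 28 in WT marginal zone cells, which are deeper (median 7695 UMIs in CKO, against 4058 in follicular cells).

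**Figure D1:**
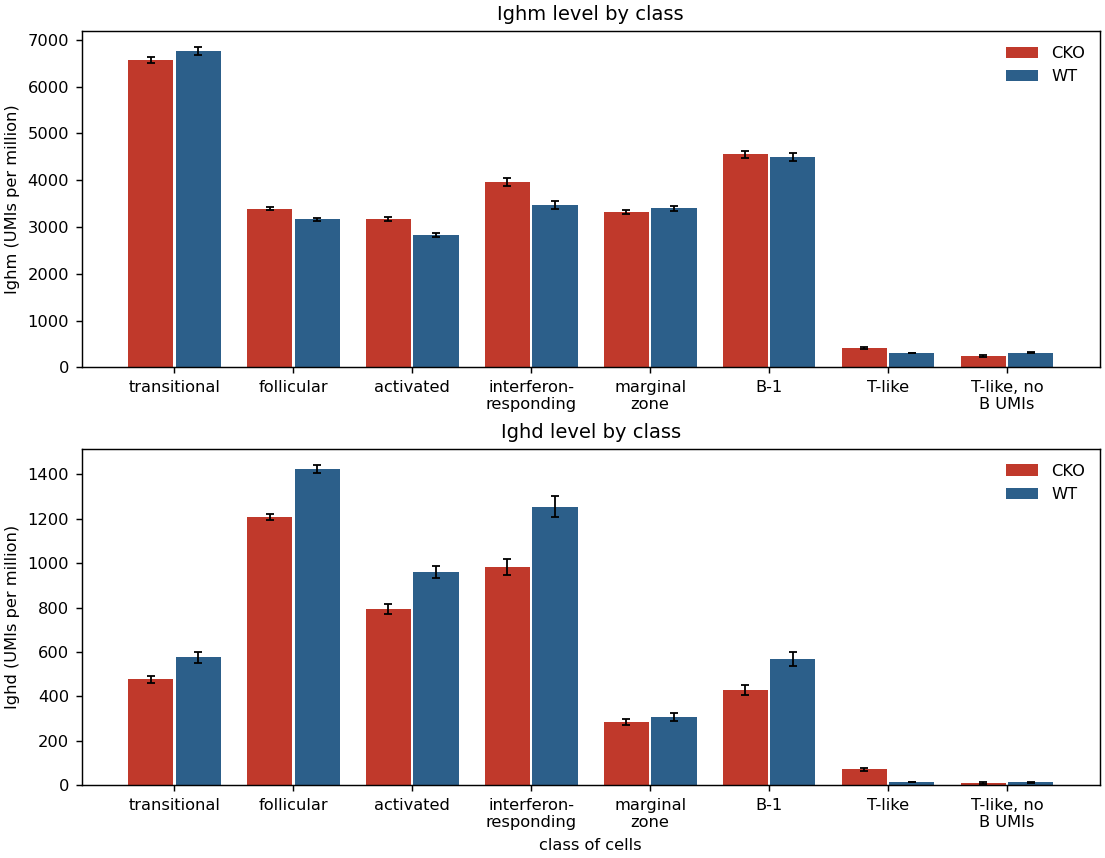
Ighm and Ighd levels by class, as bars of CPM of the class's summed UMIs on linear axes from 0, with CKO left of WT, error bars for the 95% Poisson interval, and T-like cells at the right as free-RNA background. Ighm was highest in transitional cells (6574 CPM in CKO, 6756 CPM in WT), while Ighd was highest in follicular cells (1206 CPM in CKO, 1423 CPM in WT).

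Ighd, the delta chain of mature naive B cells, was lower in the CKO library in all 5 mature classes described here. In all B-like cells it was at 832 CPM in CKO (824 to 840) and 1055 CPM in WT (1044 to 1066), a ratio of 0.788 (0.777 to 0.799), short of 1.5-fold. Of the CKO B-like cells 87.5% had an Ighd UMI, and of the WT B-like cells 92.2% did. Thinned to 1000 UMIs, the shares were 53.0% in CKO and 62.6% in WT, beside 3.46% and 1.35% in T-like cells. With the class mix of the WT library the ratio was 0.840, and with the T-like level subtracted it was 0.730, or 0.789 with T-like cells without B marker UMIs as background.

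Follicular cells held the most Ighd, at 1206 CPM in CKO and 1423 CPM in WT (0.848, 0.833 to 0.862). The 3 follicular clusters gave 0.849, 0.844 and 0.892 one by one. Interferon-responding cells followed with 982 CPM in CKO and 1254 CPM in WT (0.783, 0.741 to 0.827), and activated cells with 794 and 959 CPM (0.828, 0.797 to 0.860). B-1-like cells, known for little surface IgD, had 430 CPM in CKO and 567 CPM in WT (0.759, 0.702 to 0.820). Transitional cells had 477 CPM in CKO and 576 CPM in WT (0.829, 0.785 to 0.877). The ratio thus lay below 1 within each of these classes, whose shares differ between the libraries.

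Marginal zone cells, an IgM-high IgD-low type, had the least Ighd of the large resting classes, 284 CPM in CKO and 307 CPM in WT (0.924, 0.856 to 0.997). Cycling B-like cells had 198 CPM in CKO and 276 CPM in WT (0.717, 0.593 to 0.871). The Rag1-high transitional cells rested on 53 CKO and 8 WT UMIs, and their ratio of 1.89 (0.894 to 4.61) includes 1. In WT the B-1-like interval (536 to 600 CPM) and the transitional interval (551 to 601 CPM) overlap, so the order of these neighbours is not resolved there.

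As a share within the pair of genes, Ighd does not depend on the other transcripts of the cell. Ighd made up 17.5% of Ighm plus Ighd UMIs in CKO B-like cells (17.4 to 17.7) and 22.7% in WT B-like cells (22.5 to 22.9). In follicular cells the share was 26.2% in CKO and 31.0% in WT. Over the 4340 CKO and 3690 WT follicular cells with at least 10 UMIs of both genes together, the median cell had 26.7% in CKO (quartiles 16.1 and 36.9) and 31.6% in WT (quartiles 21.4 and 42.3). Both quartiles and the median were lower in CKO, and the distributions overlap broadly. The median cell among activated cells had 21.7% in CKO and 27.6% in WT, and among interferon-responding cells 20.7% and 27.3%. B-1-like cells had medians of 7.0% in CKO and 10.9% in WT, and marginal zone cells 5.56% and 6.06%.

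**Figure D2:**
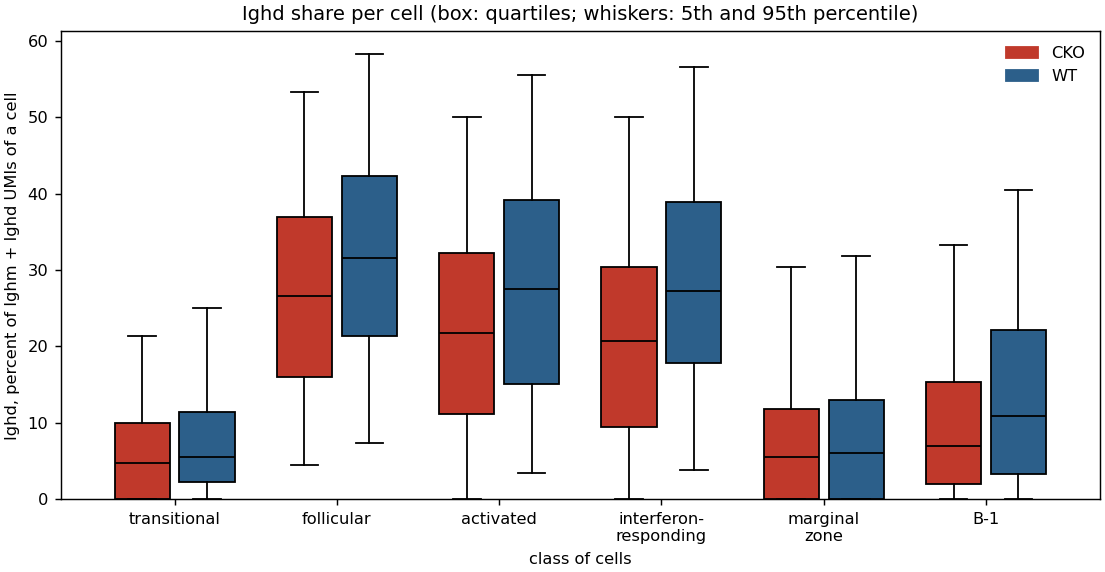
Ighd UMIs as percent of Ighm plus Ighd UMIs per cell, for cells with at least 10 such UMIs, by class, with CKO left of WT; boxes span the quartiles with the median as a line, and whiskers the middle 90% of cells. The follicular median was 26.7% in CKO and 31.6% in WT, and the quartile ranges overlap in every class drawn.

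Zfp318, the nuclear factor required for the long transcript that gives Ighd in mouse B cells, was chosen for mention after its values were seen. It stood at 217 CPM in CKO B-like cells and 248 CPM in WT B-like cells (0.873, 0.849 to 0.898), and in follicular cells at 306 and 331 CPM (0.923). Both ratios are short of 1.5-fold, and a link to the Ighd level was not tested.

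Switched transcripts were sparse in the B lineage. A B lineage cell was counted as switched when it held at least 3 UMIs of 1 switched gene, which 37 of 8977 CKO cells did (0.412%, 0.290 to 0.568) and 52 of 6776 WT cells (0.767%, 0.574 to 1.01). The ratio of these shares was 0.537 (0.343 to 0.835). By the same count 0 of 838 CKO T-like cells passed, with an interval up to 0.439%. Of the WT T-like cells 5 of 3626 did (0.138%). Most of the counted cells still held mu transcript: in the B lineage 2 CKO and 13 WT cells had no Ighm UMI, and 13 CKO and 23 WT cells had 10 or more UMIs of the switched gene. Outside the plasma class, 32 CKO and 44 WT cells were counted, of which 0 and 8 had no Ighm UMI. Their median Ighm count was 43.5 UMIs in CKO and 19.5 in WT. The count is thus one of cells with transcript of a switched gene, and whether they had switched was not tested. Thinned to 1000 UMIs, only 4 CKO and 11 WT cells passed.

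Of 8 members measured in all B-like cells, meaning at least 20 summed UMIs in a library, 5 were lower in CKO by at least 1.5-fold with an interval clear of 1, and 0 were higher by that rule. Among all 12381 genes measured so, 1.74% were lower and 2.43% were higher by that rule. The 5 were Ighg1, Ighg2b, Ighg2c, Igha and Jchain, and the median log2 ratio of the 8 was −0.79, beside 0.04 for all genes. The level in T-like cells and the number of contributing cells are given with each of them.

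Ighg3, the gamma isotype of T-independent responses, stood at 5.03 CPM in CKO and 5.23 CPM in WT B-like cells (0.963, 0.794 to 1.17), although 58 of the 241 CKO UMIs were in 1 cell. An Ighg3 UMI was in 0.993% of CKO B-like cells (0.798 to 1.22) and 1.6% of WT B-like cells (1.31 to 1.93). It was nearly free of background, with 1 UMI in the T-like cells of each library. Ighg3 was the leading switched gene, with 3 UMIs or more, in 17 CKO and 12 WT B-like cells, of which 17 and 10 also held at least 10 Ighm UMIs. The CKO cells were 8 B-1-like, 5 marginal zone and 4 cycling cells, and among the WT cells 3 each were marginal zone, activated and germinal centre B-like.

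Marginal zone cells had 44 Ighg3 UMIs in CKO and 59 in WT (8.36 and 14.9 CPM, 0.561, 0.371 to 0.843), in 4.33% of CKO and 8.91% of WT cells, beside 0.119% and 0.0276% of T-like cells. Thinned to 1000 UMIs, 0.642% of these CKO cells and 1.34% of the WT cells had one. With no cell filter the interval of the ratio included 1 (0.682, 0.463 to 1.002). At resolution 0.6 the class of that name also took in 366 of 389 CKO and 252 of 265 WT B-1-like cells, so its ratio of 1.37 is not one of marginal zone cells alone. B-1-like cells went the other way, with 117 UMIs in CKO and 23 in WT (35.9 and 10.7 CPM, 3.36, 2.13 to 5.50). In CKO, 58 of the 117 came from 1 cell, which also held 13 Ighm and 7 Jchain UMIs. Without the top cell of each library the ratio was 2.16 (1.26 to 3.89), and with the stricter cell filter 1.26. The activated class had 10 UMIs in CKO and 46 in WT (0.185, 0.0831 to 0.371), a ratio that was 0.338 with the stricter filter.

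Ighg1, the main gamma isotype of T-dependent responses, had 0 UMIs in CKO B-like cells and 58 in WT B-like cells (ratio 0, 0 to 0.0504). These were few cells: 41 of the 58 WT UMIs were in 1 germinal centre B-like cell, and 10 and 6 in a pair of interferon-responding cells. Those 3 WT cells held no Ighm UMI. T-like cells held 0 Ighg1 UMIs in CKO and 1 in WT. The difference in this gene therefore rests on 3 WT cells.

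Ighg2b, a gamma isotype that TGF-beta can induce, had 165 UMIs in CKO and 278 in WT B-like cells (3.45 and 7.57 CPM, 0.455, 0.373 to 0.554). In T-like cells it had 1 UMI in CKO and 41 in WT (0.183 and 1.59 CPM). It led the switched genes in 13 CKO and 18 WT B-like cells. Marginal zone cells held 5 UMIs in CKO and 47 in WT (0.0800, 0.0248 to 0.200), with 1 and 6 cells at 3 UMIs or more; the ratio was 0.0214 with the stricter cell filter, 0.142 with no filter and 0.0406 without the top cell of each library. Activated cells held 9 UMIs in CKO and 65 in WT (0.118, 0.0515 to 0.237), of which 37 were in 1 WT cell. B-1-like cells held 36 in CKO and 34 in WT (0.699, 0.425 to 1.15), an interval that includes 1.

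Ighg2c, the isotype of interferon-gamma and antiviral responses in C57BL/6 mice, differed most in total, with 47 UMIs in CKO and 13757 in WT. In WT, 97.4% of these were in plasma cell-like cells. In B-like cells there was 1 UMI in CKO and 229 in WT (0.0209 and 6.23 CPM, ratio 0.00335, 8.45e-05 to 0.0189). Cells of other lineages had 0 UMIs in CKO T-like and NK-like cells, and 4.0 and 6.24 CPM in WT T-like and NK-like cells. The WT level in the 6 larger B-like classes, 4.55 to 6.83 CPM, brackets that of WT NK-like cells. In follicular cells 0 of 4675 CKO and 2.89% of 3940 WT cells had an Ighg2c UMI, beside 0 of 838 CKO and 2.62% of 3626 WT T-like cells. Median depths were 4058 UMIs in CKO and 4308 in WT follicular cells, and 6175 and 6751 UMIs in T-like cells. The WT share in follicular cells was 0.817% after thinning, beside 0.304% in T-like cells, and no follicular cell had more than 2 UMIs. As the leading switched gene with 3 or more UMIs, Ighg2c was found in 0 CKO and 2 WT B-like cells.

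Ighe, the epsilon chain of IgE, had 0 UMIs in CKO and 4 in WT, 1 each in 4 cells. Of these, 3 were germinal centre B-like and 1 was a marginal zone B-like cell. Set against the floor of 3 UMIs that a count of 0 allows, this gives no comparison.

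Igha, the alpha chain of IgA, had 356 UMIs in CKO and 447 in WT B-like cells (7.43 and 12.2 CPM, 0.611, 0.530 to 0.704), beside 2.01 and 2.68 CPM in T-like cells. Among the larger classes its level was highest in B-1-like cells, with 52 UMIs in CKO and 126 in WT (16.0 and 58.7 CPM, 0.272, 0.193 to 0.379). The WT UMIs there came largely from 3 cells with 36, 29 and 28 UMIs, and 1 CKO cell held 23. With no filter on cells the ratio was 0.599. In follicular cells Igha was at 8.78 CPM in CKO and 10.7 CPM in WT (0.824, 0.670 to 1.01), an interval that includes 1, with a UMI in 3.61% of CKO and 4.06% of WT cells and mostly 1 UMI a cell. In T-like cells 1.31% of CKO and 1.38% of WT cells had an Igha UMI, and after thinning the shares were 1.03% and 1.07% in follicular and 0.239% and 0.166% in T-like cells.

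**Figure D3:**
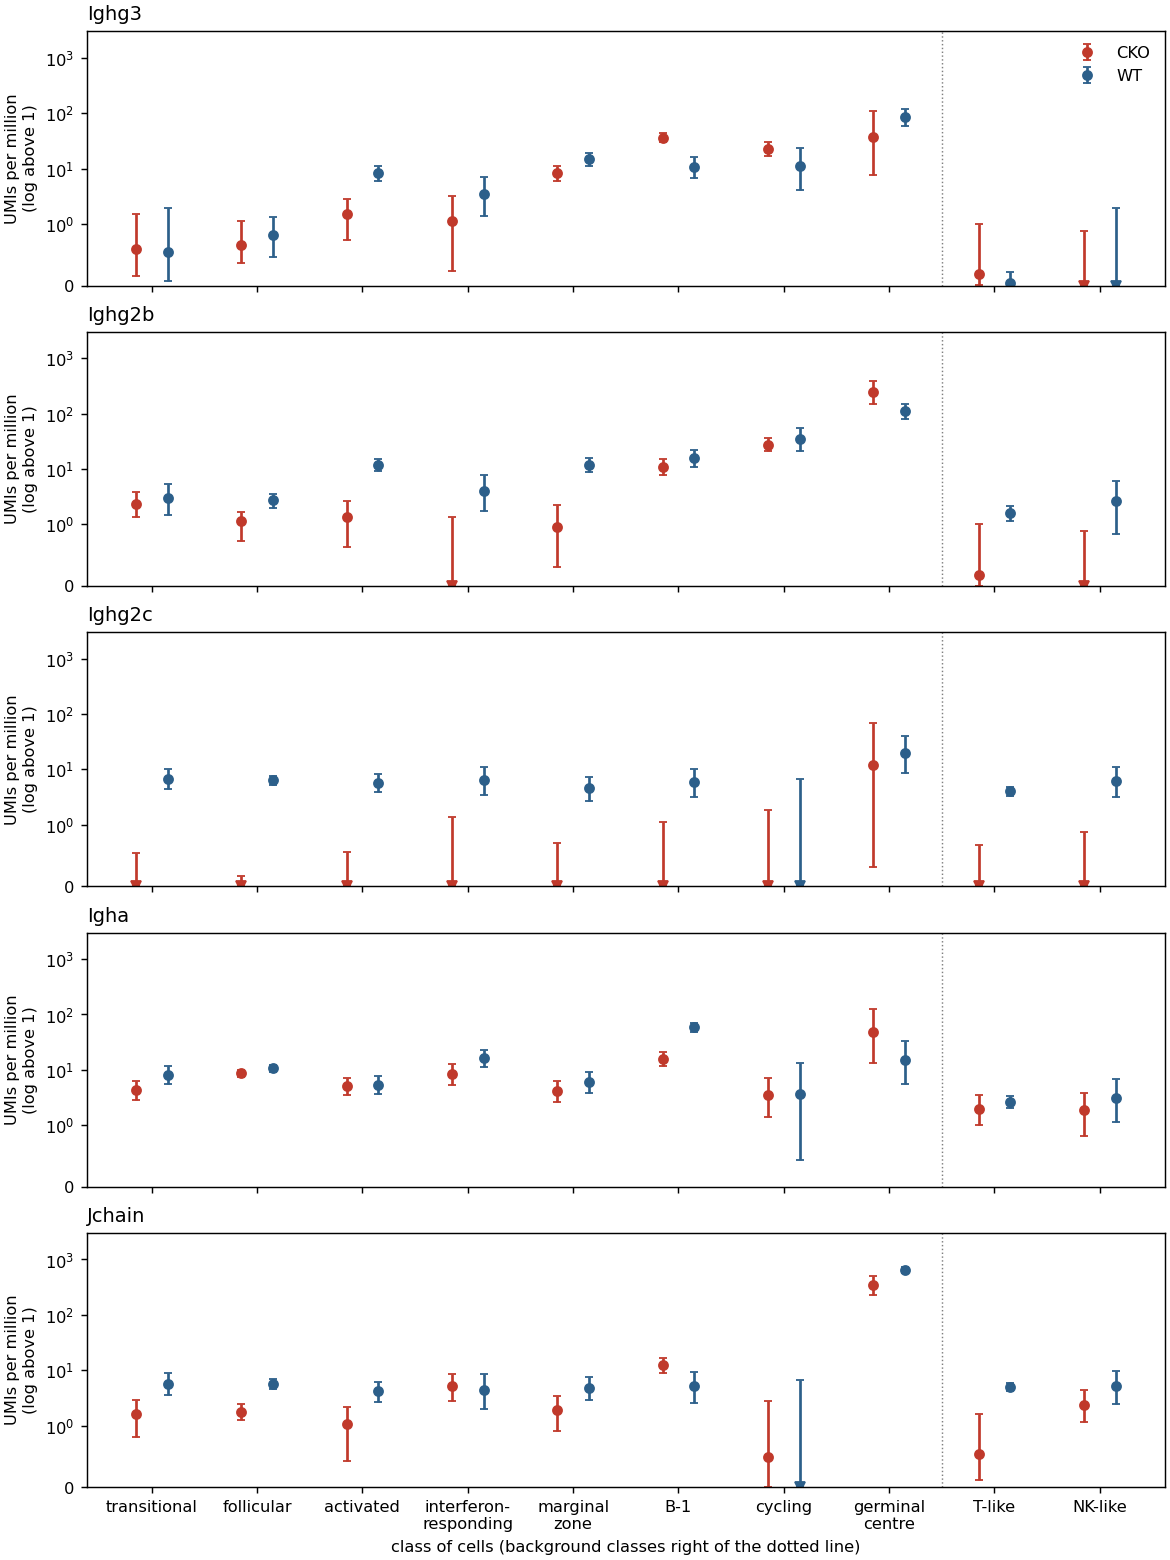
Levels of Ighg3, Ighg2b, Ighg2c, Igha and Jchain by class, as CPM of the class's summed UMIs on an axis that is linear up to 1 and logarithmic above, with CKO left of WT, 95% Poisson intervals, triangles for a count of 0, and T-like and NK-like cells right of the dotted line as free-RNA background. Ighg2c stood at 4.0 CPM in WT T-like cells and 6.23 CPM in WT B-like cells, and at 0 and 0.0209 CPM in the CKO ones.

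Germinal centre B-like cells, where switching and selection take place, were found by at least 3 of 6 markers such as Mef2b, Rgs13 and S1pr2. They were 0.0668% of B lineage cells in CKO and 0.266% in WT (0.252, 0.0818 to 0.662). The 6 CKO cells held 8, 9, 34, 37, 61 and 88 Ighm UMIs, and the 18 WT cells 0 to 196 with a median of 32.5. A switched gene at 3 UMIs or more was seen in 1 of 6 CKO cells, an Ighg2b cell with 20 UMIs, and in 7 of 18 WT cells. The class came from different clusters, with 2 of the 6 CKO and 15 of the 18 WT cells in the cycling cluster, 3 and 0 in a follicular cluster and 1 and 3 in the activated cluster. Median depths were 13665 UMIs in CKO and 23585 in WT. With so few cells, a difference in switching among germinal centre cells was not detectable at this depth.

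Germinal centre cells held more of the Jchain outside plasma cells in WT than in CKO. The 6 CKO germinal centre B-like cells held 28 of the 149 B-like Jchain UMIs (0, 0, 1, 4, 11 and 12 per cell), and the 18 WT cells 257 of 445 (0 to 52, median 10.5), or 344 and 646 CPM (0.532, 0.346 to 0.787). At least 10 Jchain UMIs were found in 3 CKO and 12 WT cells outside the plasma class, of which 2 and 12 were germinal centre B-like. In all B-like cells Jchain was at 3.11 CPM in CKO and 12.1 CPM in WT (0.257, 0.212 to 0.310), beside 0.548 and 5.01 CPM in T-like cells. In WT follicular cells its 5.71 CPM was at the T-like level, against 1.80 CPM in CKO follicular cells (0.316, 0.212 to 0.462). Without germinal centre and cycling cells the B-like ratio was 0.499, and with the T-like level subtracted it was 0.361.

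In B-1-like cells Jchain was higher in CKO, with 40 UMIs in CKO and 11 in WT (12.3 and 5.12 CPM, 2.40, 1.21 to 5.19). In CKO 4 of these cells held 3 or more Jchain UMIs and the highest held 7, while in WT 0 cells did and the highest held 2. The WT level there was close to that of WT T-like cells. The interval of the ratio included 1 with doublet-scored cells kept (1.68, 0.921 to 3.20) and with the stricter filter (2.01, 0.854 to 5.24). In interferon-responding cells Jchain had 14 UMIs in CKO and 9 in WT (1.16, 0.469 to 3.05).

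Counted by class, the members called were as follows, each beside the share of all measured genes called in that class. Lower in CKO were 3 of 5 measured members in transitional cells (1.57% of genes), 3 of 6 in follicular cells (1.65%), 4 of 7 in activated cells (1.42%), 1 of 3 in interferon-responding cells (1.34%), 2 of 5 in marginal zone cells (1.37%) and 1 of 6 in B-1-like cells (1.5%). Higher in CKO were 2 of 6 in B-1-like cells, Ighg3 and Jchain, beside 2.52% of genes, and 0 in each of the other classes, where 1.54% (transitional), 1.27% (follicular), 1.68% (activated), 2.4% (interferon-responding) and 1.58% (marginal zone) of genes were higher. Ighm and Ighd were never among those called. Ighg2c and Jchain were among those called lower in transitional, follicular and activated cells. In WT, Ighg2c stood there at 5.78 to 6.83 CPM, beside 4.0 CPM in T-like and 6.24 CPM in NK-like cells. Jchain stood at 4.15 to 5.73 CPM in these WT classes, beside 5.01 CPM in WT T-like cells. The part of free RNA in these calls was not tested. Of the 16 calls 5 did not hold under every alternative: Ighg3 in marginal zone and B-1-like cells and Jchain in B-1-like cells, as given above, and Igha in transitional cells (0.525) and interferon-responding cells (0.521). Without the top cell of each library the Igha ratios were 0.611 (0.339 to 1.11) and 0.587 (0.320 to 1.06), and at resolution 1.6 the transitional one was 0.711 (0.458 to 1.11).

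Plasma cell-like cells, the antibody-secreting cells, were told from others by 9 of 12 marker genes such as Xbp1, Sdc1 and Prdm1, with no immunoglobulin gene in the list. They were 0.189% of B lineage cells in CKO (0.110 to 0.303) and 0.413% in WT (0.275 to 0.597), a ratio of 0.458 (0.235 to 0.867). Against all cells used, the shares were 0.150% in CKO and 0.248% in WT, and that ratio of 0.605 (0.311 to 1.15) includes 1. Immunoglobulin transcripts took a median of 56.8% of a cell's UMIs in both libraries, over 36.8% to 71.7% in CKO and 16.2% to 76.1% in WT.

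Each of these 45 cells expressed 1 constant gene far above the rest, with at least 99.4% of heavy constant UMIs in CKO cells and 92.0% in WT cells. Ighm was that gene in 14 CKO cells, with 334 to 5321 UMIs and a median of 2466, and in 22 WT cells, with 115 to 7910 UMIs and a median of 3707. Igha was that gene in 3 CKO cells, with 3018, 3095 and 8969 UMIs, and in 2 WT cells, with 2851 and 6238. Ighg2c led in 0 CKO and 3 WT cells (3641, 4024 and 5689 UMIs), and Ighg2b in 0 CKO and 1 WT cell (1855 UMIs). Ighg1, Ighg3, Ighd and Ighe led in none of the plasma cells of either library.

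Switched plasma cells were therefore 3 of 17 in CKO (17.6%, 3.80 to 43.4) and 6 of 28 in WT (21.4%, 8.30 to 41.0), intervals that overlap almost wholly. The isotypes were IgA alone in CKO, and IgA, IgG2c and IgG2b in WT. For a gene seen in 0 of 17 CKO plasma cells, the interval reaches up to 19.5%. Second genes were few. The 3 CKO Igha cells held 18 Ighg2b, 12 Ighg2c and 1 Ighm UMIs as their runner-up, and among WT cells the highest was 45 Igha UMIs in an Ighg2c cell.

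**Figure D4:**
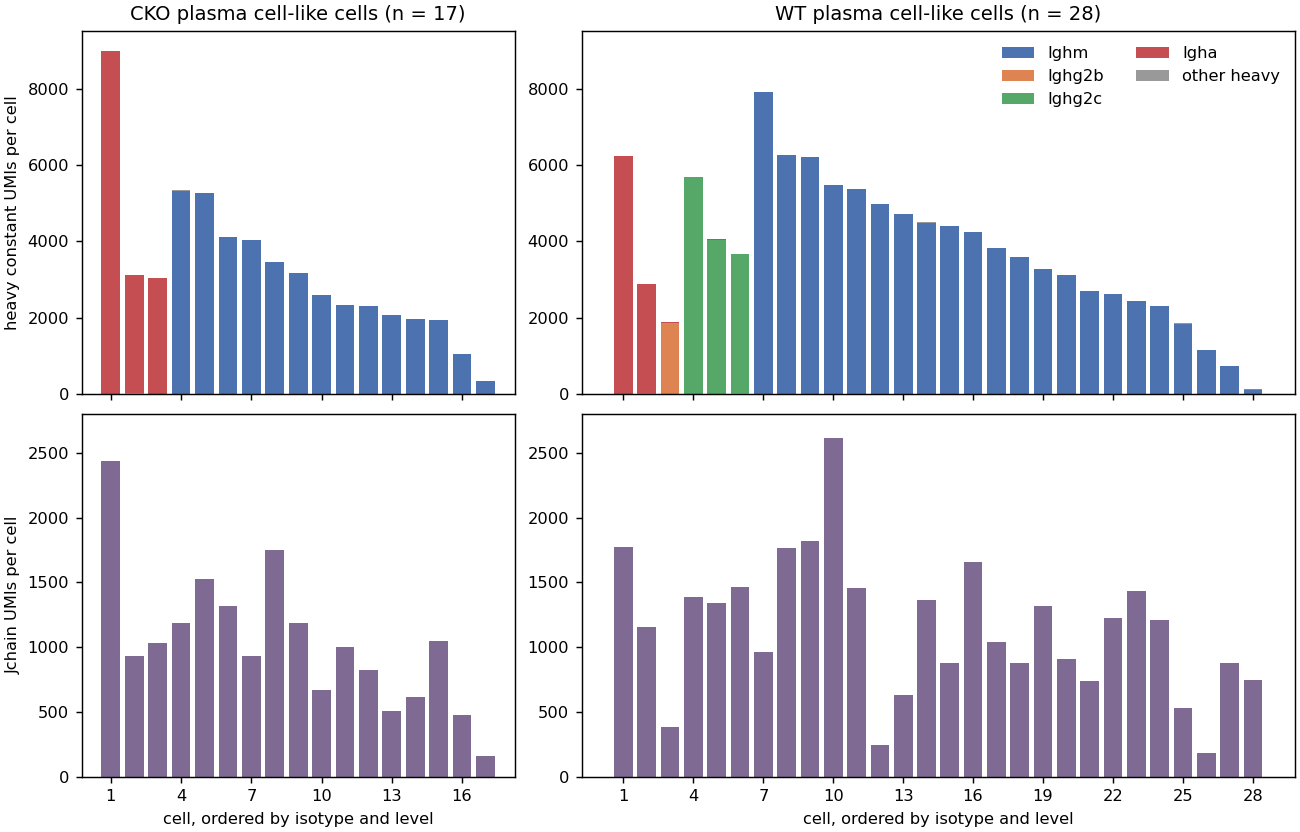
Each plasma cell-like cell as a bar, with its heavy constant UMIs stacked by gene (upper panels) and its Jchain UMIs (lower panels) on linear axes, CKO left of WT, cells ordered by isotype and level. Igha cells were 3 in CKO and 2 in WT, and the 3 Ighg2c cells and 1 Ighg2b cell were in WT.

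Jchain was present in every plasma cell-like cell, of switched gamma isotype as well. It ranged over 160 to 2438 UMIs with a median of 1000 in CKO, and over 185 to 2616 with a median of 1180.5 in WT. Summed, it was 41673 CPM in CKO and 40358 CPM in WT plasma cell-like cells (1.03, 1.01 to 1.05), so its lower B-like total had no counterpart here. The 3 WT Ighg2c cells held 1339, 1384 and 1461 Jchain UMIs and the Ighg2b cell 382, although the gamma chains lack the tailpiece cysteine shown in capitals above. Per 100 heavy constant UMIs, Jchain had a median of 32.0 in CKO (22.2 to 54.1) and 28.9 in WT (4.84 to 598). The highest WT value was a dividing cell with 115 Ighm and 53 Mki67 UMIs, Mki67 being a marker of cell division.

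Ighm was at 94637 CPM in CKO and 103238 CPM in WT plasma cell-like cells (0.917, 0.906 to 0.928), and Igha at 35751 and 11584 CPM, and these sums follow the few cells just listed. Ighd was at 0 in 13 of 17 CKO and 18 of 28 WT plasma cells and reached 14 and 7 UMIs at most. Light chain use was kappa in 13, lambda in 3 and mixed in 1 of the CKO cells, and kappa in 21 and lambda in 7 of the WT cells. At least 10 Mki67 UMIs were found in 0 CKO and 3 WT plasma cells.

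Genes that work with the members differed little in all B-like cells. Of the light chain constant genes, 0 of 5 were called: the kappa gene Igkc was at 9578 CPM in CKO and 9540 CPM in WT (1.004), and the lambda genes Iglc1, Iglc2 and Iglc3 at 1.11, 1.09 and 0.985 times. Of 16 B cell receptor genes, 2 were higher and 0 lower. These were the surrogate light chain genes of precursor B cells, Igll1 with 110 UMIs in CKO and 1 in WT (84.4, 14.8 to 3364), and Vpreb1 with 183 and 18 (7.80, 4.80 to 13.5).

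Of 25 plasma cell and secretion genes, 1 was lower, Fkbp11 of the endoplasmic reticulum (7.60 CPM in CKO, 11.4 CPM in WT, 0.665, 0.576 to 0.767), and 0 were higher. Of 22 heavy chain transcription genes and 10 measured antibody receptor genes, none passed the rule in either direction. The medians of the lists named here lay between 0.002 and 0.09 on the log2 scale, beside 0.04 for all genes.

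Over 24 class-by-library sums of at least 50 cells, genes most like each member were found by Pearson's r of log2(CPM + 1), which describes sums that share library and depth. Genes close to Ighm were Pou2af1 (0.981) and Cd79b (0.979), which are B cell genes. Ighd was most like Fcer2a, the IgE receptor CD23 of follicular cells (0.978), Pxk (0.965) and Fcmr, the IgM receptor (0.963). Ighg3 was most like Fcrl5 (0.915), a receptor of marginal zone and B-1 cells, AF067061 (0.903) and Ackr2 (0.863), and Igha most like Sfn (0.895), Cd55 (0.870) and Ezr (0.860). For Ighg2c, whose B-like levels separate the libraries, the nearest was Eif2s3y of the Y chromosome (0.939). Ighg2c was at 0 CPM in every CKO sum used, so a high r here describes a gene that also differs between the libraries. The labels do not give sex, so a difference in sex between the libraries cannot be told apart from one in genotype. The nearest genes to Ighg2b (E2f3, 0.688), Ighe (Tspan15, 0.620), Jchain (Cdk5rap1, 0.599) and Ighg1 (Zcchc2, 0.567) were less alike.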

How the data were processed

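Single-cell 3′ libraries of spleen immune cells were sequenced, 1 per genotype. The deposited matrices hold raw UMI counts per gene and barcode, made by the authors with Cell Ranger 6.0.2, per the file headers. Cell Ranger 5.0.0, Seurat 4.0.3 and the mm10 build are named in the submitters' processing notes. The CKO library summed to 76910129 UMIs and the WT library to 84240951. The matrices had been reduced to called cells before deposit, so empty droplets were not analysed here, and free RNA was judged in T-like cells.

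Cells with 200 to 6000 genes and under 10% mitochondrial UMIs were kept (Python 3.11.15, scanpy 1.11.5). Scrublet scored doublets per library, and the highest-scoring cells were removed at a rate of 0.8% per 1000 cells (1293 CKO, 1394 WT), because the automatic threshold marked only 9 CKO and 532 WT cells. Clusters came from the Leiden method (leidenalg 0.10.2, resolution 1, 2000 variable genes, 30 principal components, 15 neighbours), without immunoglobulin, T cell receptor and sex-linked genes and Rpa1, and were named "-like" from marker lists. Plasma cell-like cells needed 9 of 12 plasma markers and 3 marker UMIs per 1000 non-immunoglobulin UMIs. The fewest markers in the class were 9, and 8 cells were 1 marker short. Germinal centre B-like cells needed 3 of 6 markers, and 25 cells were 1 marker short.

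UMIs were summed per class and library. Levels carry exact Poisson, shares exact Clopper-Pearson and ratios exact conditional binomial 95% intervals (scipy 1.17.1), which cover counting error only. Intervals on summed UMIs take each UMI as independent. They are too narrow where 1 cell holds many UMIs of a rare gene, as with 58 of the 117 Ighg3 UMIs in CKO B-1-like cells. No test or p-value was possible with 1 library per genotype. A gene was called at 20 summed counts in a library, 1.5-fold and an interval clear of 1. Gene lists other than the members name genes by this rule, at most 5 a list, with Igkc and Iglc1 to Iglc3 always given. Zfp318 is named outside this rule. A plasma cell's isotype needed 10 UMIs and 50% of its heavy constant UMIs, and a light chain call a 10-fold excess. Likeness used genes at 20 CPM or more in a class. The script was tested on simulated counts, drawn as independent Poisson sums, which cannot show the effect of UMIs clumped in single cells. The members and lists were chosen with earlier results of these data known. Sequences and positions come from GENCODE vM21 on GRCm38, where all 9 members matched by gene ID. Some genes are not reported here. Alternatives are given in the closing section.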

Additional observations from a re-analysis of the deposited data

Results flagged for a closer look

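Ighg3 in B-1-like cells stood apart because its CKO over WT ratio was 3.36, while in activated B-like cells it was 0.185. Jchain moved apart in the same classes, at 2.40 in B-1-like cells and 0.259 in activated cells. The activated ratio rests on 7 Jchain UMIs in CKO and 23 in WT. Its levels were 1.07 CPM in CKO and 4.15 CPM in WT, beside 0.548 and 5.01 CPM in T-like cells. The interval of the Jchain ratio in B-1-like cells included 1 with doublet-scored cells kept (1.68, 0.921 to 3.20) and with the stricter filter (2.01, 0.854 to 5.24). That ratio was 4.29 with no cell filter. The Ighg3 ratio in B-1-like cells was 1.26 (0.760 to 2.14) with the stricter filter. Neither difference between classes was tested, since each rests on 1 library per genotype.

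Barcodes left out by the filters or as doublets were searched for plasma cell transcript. In the CKO library 1 such barcode held at least 100 Jchain UMIs, and in the WT library 0 did. The CKO barcode had been removed by its doublet score. It held 51721 UMIs, 12 of the plasma markers, 1591 Ighm and 783 Jchain UMIs.

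In the CKO library 34 of the 47 Ighg2c UMIs were in 1 cell of the cycling cluster that belonged to neither the B-like nor the T-like class. That cell held 72 Igkc and 4 Mki67 UMIs and 0 UMIs of Cd79a and Ms4a1.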

How the results depend on the processing

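No paired analysis was possible because each genotype has 1 library. For the 5 main results, 47 of 60 alternatives stayed within the counting interval and 13 moved beyond it, with 0 reversed. The Ighm ratio of 1.09 in B-like cells was 1.07 with the T-like level subtracted, 1.12 with the level of T-like cells without B marker UMIs subtracted, 1.05 with the class mix held at WT shares and 1.08 with no cell filter. The Ighd ratio of 0.788 was 0.730 with the T-like level subtracted, 0.789 with that of T-like cells without B marker UMIs subtracted, 0.772 with cells thinned and 0.840 with the class mix held. The Jchain ratio of 0.257 was 0.361 and 0.383 with these backgrounds subtracted, 0.509 with the class mix held and 0.499 without germinal centre and cycling cells. The switched share ratio of 0.537 was 0.274 with cells thinned and 0.116 over cells without an Ighm UMI. The background of cells without B marker UMIs, the class mix, the left-out classes, the Ighm condition and other counts of plasma markers were chosen after seeing the data. The plasma cell share ratio of 0.458 was 0.458, 0.447 and 0.453 with 8, 10 and 11 markers.

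By class, 197 of 218 alternatives for 32 results stayed and 20 moved. Reversed was 1, Ighg3 in marginal zone cells, 0.561 as reported and 1.37 at resolution 0.6, where that class had taken in most B-1-like cells, as it had for Ighg2b (0.372) and Igha (0.351) there. Of 218 alternatives, 19 moved a ratio by over 1.5 times, these 3 among them. In B-1-like cells the others were Ighg3 (1.26 with the stricter cell filter, 2.16 without the top cells), Ighg2b (0.453 with doublets kept), Igha (0.599 with no filter) and Jchain (4.29 with no filter). In marginal zone cells they were Ighg2b (0.0214 with the stricter filter, 0.142 with no filter, 0.0406 without the top cells), and in follicular cells Ighg2b (0.209 with no filter, 0.205 with the stricter one). In activated cells they were Ighg3 (0.338 with the stricter filter, 0.379 at resolution 0.6), Ighg2b (0.300 at resolution 0.6) and Jchain (0.106 with doublets kept, 0.136 at resolution 1.6), and in transitional cells Jchain (0.480 with doublets kept). Of 16 called class ratios, 5 lost the call under at least 1 alternative, 8 times in all. No alternative by class subtracted the T-like level. Several class values of the switched genes rest on under 50 UMIs or on 1 cell.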
